A study of Mus with 6 samples.

Results

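The lens epithelium at 0 h post cataract surgery (PCS) is described here from 3 RNAseq libraries of the 6 in the series, which were chosen by their label as wild type at 0 h PCS. The operation removed the lens fiber cell mass and left the lens epithelial cells (LECs) on the lens capsule, and at 0 h this capsule was collected at once. The mice were wild type C57BL/6 animals, and 5 capsules were pooled for each library. Their age was 2 months by the labels, whereas the methods of the study state 3 to 5 months and mice of both sexes, and the sexes in each pool are not given in the labels. By the labels, the 2 eyes of a mouse were operated 6 h apart before it was killed, so a 0 h capsule can come from a mouse whose other eye had been operated 6 h earlier, while the methods describe the animals of a pool as independent. No treatment, transgene or deletion was present. The other 3 libraries of the series, taken at 6 h PCS, were not used, and the 3 pools at 0 h form one group, so no test between groups applies and all values are descriptions with their spread. The pools were separate collections of capsules, and what differed between them beyond that is not given in the labels.

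The lens epithelium is a single layer of cells under the anterior capsule, a thick basement membrane which these cells produce. Its cells divide slowly, carry ions, water and nutrients for the lens, which has no blood vessels, and supply new fiber cells at the equator. Paired box and forkhead transcription factors such as Pax6 and Foxe3 keep the epithelial state, and the fiber cells fill with crystallins and join each other by gap junctions. Around the lens equator, the zonule fibers attach the capsule to the ciliary body, a folded epithelium of neural and pigmented cells that continues into the retina and the iris. RNA of these neighbors can be carried on a dissected capsule, and in such bulk samples fewer cells of a type and less RNA per cell cannot be told apart.

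Replicates 1, 2 and 3 held 21318621, 24701039 and 20253239 read pairs counted on genes, which were 39.5%, 41.2% and 40.4% of the read pairs in their files. Levels are given as counts per 1000000 gene counts (CPM) or, where an exon length was at hand, as fragments per kilobase of exon and 1000000 gene counts (FPKM). Triplets of values are given in the order of replicates 1, 2 and 3, and values after ± are SDs over these 3 pools (n = 3). CPM counts reads and so grows with the length of a transcript. An order of genes, a rank or a median in CPM is therefore one of read counts, and levels per transcript are ordered only in FPKM. A count of 0 allows up to 0.141, 0.121 and 0.148 CPM in the 3 libraries, and these limits cover counting error only because the libraries held no molecular identifiers. The 3 pools did not stand alike, and the difference is given first because later values rest on it. Replicate 2 had the highest counts of retina markers, replicate 1 those of immediate early genes and pigment markers, and replicate 3 those of Malat1 and Neat1 together with the largest share of read pairs outside annotated exons. This share was 14.1%, 11.4% and 18.7% of all read pairs.

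The files list 55421 genes, of which 29498 were without a count throughout and 18808 had a count in all 3. With at least 10 counts in every library, 14935 genes were detectable, and each had at least 0.405 to 0.494 CPM depending on the library. The median detectable gene stood at 13.5 CPM, 1338 genes reached 100 CPM and 60 reached 1000 CPM. Gene symbols were at hand for 5920 detectable genes (39.6%), and exon lengths for 1828 of these. Of all 7017 genes with a symbol 84.4% were detectable, and counts of detectable list members below stand against this share. The named genes held 33.8%, 33.1% and 36.1% of the gene counts. Their names come from tables of the study that lean towards genes which changed after surgery, so counts of named genes do not stand for the whole transcriptome. Among the detectable named genes, 5140 were protein-coding and 218 were long noncoding RNAs in RefSeq.

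The counts were concentrated in few genes. The 10 most abundant genes took 34.6%, 34.9% and 33.2% of the gene counts, and 140, 137 and 158 genes held 50% of them. The most abundant feature, ENSMUSG00000076258, took 17.0%, 17.6% and 14.8%, and it was followed by ENSMUSG00000024041 at 37689.9, 41866 and 34871 CPM. Neither identifier was paired with a name. The third, Malat1, a long noncoding RNA kept in the nucleus (chromosome 19, 5795690 to 5802672 on GRCm38), stood at 32118, 22747 and 48479 CPM and was highest in replicate 3. Mitochondrial ribosomal RNAs were also among the 10, with mt-Rnr2 at 28434, 30318 and 29086 CPM and mt-Rnr1 at 10578, 11900.4 and 10810.0 CPM. The transcripts Gm26917 (10786, 9568 and 10905 CPM) and Gm42418 (5360.4, 5241 and 5032 CPM) completed the 5 features with a name, and the other 5 had none at hand. Below these, and chosen after their values were seen, Clu, which encodes the secreted chaperone clusterin, had 3485, 3331 and 3624 CPM, and Dkk3, which encodes a secreted protein of the dickkopf family, had 2548, 2909 and 2802 CPM. Both differed little between the pools, with SDs of log2(CPM + 0.5) of 0.06 and 0.10.

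**Figure D1:**
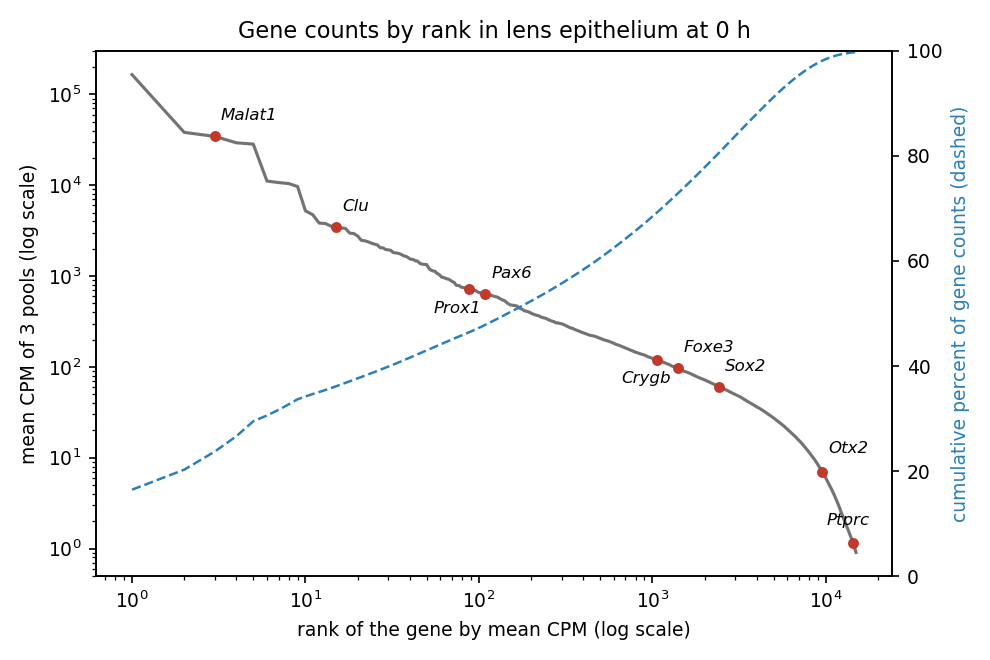
Mean CPM of the 3 pools at 0 h PCS (solid line, left axis, log scale) against the rank of each detectable gene (log scale), with the cumulative percent of all gene counts as a dashed line on the right axis. Red points mark 9 genes named in the text, from Malat1 at rank 3 through Pax6 at rank 109 and Foxe3 at rank 1400 to the leukocyte gene Ptprc, which was not detectable in every pool.

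Of Pax6, Foxe3 and Cryaa, the markers fixed for LECs, the first 2 could be used to check the identity of the tissue. Pax6, the paired box factor needed for eye formation and for the lens epithelium (chromosome 2, 105668896 to 105698410), had 603, 548 and 768 CPM, a mean of 639.8 ± 114 CPM and rank 109 by counts. Foxe3, the forkhead factor of the lens epithelium (chromosome 4, 114924443 to 114926067), had 107, 87.8 and 95.2 CPM, a mean of 96.7 ± 9.80 CPM. Both were abundant in every pool, Pax6 highest in replicate 3 and Foxe3 in replicate 1, and in both replicate 2 was lowest. No identifier was paired with Cryaa, the gene of the alpha A crystallin, in the tables used here, and it is not analysed. Because Pax6 is also expressed in ciliary, iris and retinal cells, its level alone does not name LECs, and it was lowest in the pool with the most counts of retina markers. Without replicate 2 the mean was 686 CPM for Pax6 and 101.2 CPM for Foxe3.

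Of 32 transcription factors listed for the lens and the developing eye, 20 matched a symbol, all 20 were detectable, where 84.4% of all genes with a symbol were, and 16 reached a mean of 10 CPM. Their median was 50.8 CPM, against 13.5 CPM over all detectable genes, of which only 39.6% had a symbol. Prox1, a homeobox factor that drives fiber cell differentiation, had the highest mean count, with 739, 681 and 733 CPM, although Pax6 was higher in replicate 3. Prox1 had a mean of 85.5 ± 3.80 FPKM, rank 32 of the 1828 genes with FPKM. Its CV was 4.44%, where counting alone gives 0.796%. The homeobox factors Pitx3 (41.6 ± 3.58 FPKM), which is needed for lens formation, and Hmx1 (40.2 ± 3.45 FPKM) came next per length among the 10 factors with an exon length, which leave out Pax6 and Foxe3, and lay within each other's spread. Sox2, an early factor that acts with Pax6 on crystallin genes, had 55.7, 59.7 and 66.8 CPM and 29.5 ± 2.73 FPKM, below both. Sox1, which is needed for fiber cell elongation, had 17.7 ± 3.09 FPKM and the FGF-responsive Etv5 15.6 ± 0.286 FPKM, and Sox1 was the higher in each pool, by little in replicates 1 and 2. Zeb2 had 243, 227 and 254 CPM but only 11.9 ± 0.679 FPKM, because its exons add to 20203 bases, a case in which the order by counts and the order per length differed. Mafk (7.14 ± 1.14 FPKM) and Gata3 (3.68 ± 0.978 FPKM) followed, and Sox11 was near the bottom with 0.173 ± 0.0585 FPKM, below the 25th percentile of genes with FPKM, which was 1.98 FPKM.

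Within this list, 5 members were highest in replicate 1, 6 in replicate 2 and 9 in replicate 3, where over all detectable genes these shares were 24.6%, 33.0% and 42.3%. None of the 16 members at 10 CPM or more had an SD of log2(CPM + 0.5) above 1, and the median SD of the 16 was 0.16, as over all genes at that level. Otx2, Rax and Lhx2, the members with the widest spread, are factors known from the retina and its precursors. Otx2, which is needed for photoreceptors and retinal pigment epithelium, had 5.11, 13.8 and 2.17 CPM. Rax, an eye field factor, had 21.3, 35.5 and 15.6 CPM. Lhx2, an eye field factor, had 20.5, 35.4 and 21.2 CPM. In all 3 of these genes replicate 2 was highest, by 1.67-fold over replicate 3 in Lhx2, by 2.28-fold in Rax and by 6.35-fold in Otx2, in the pool that also had the most counts of retina markers. The part of carried retina or ciliary RNA in these 3 levels was not tested.

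**Figure D2:**
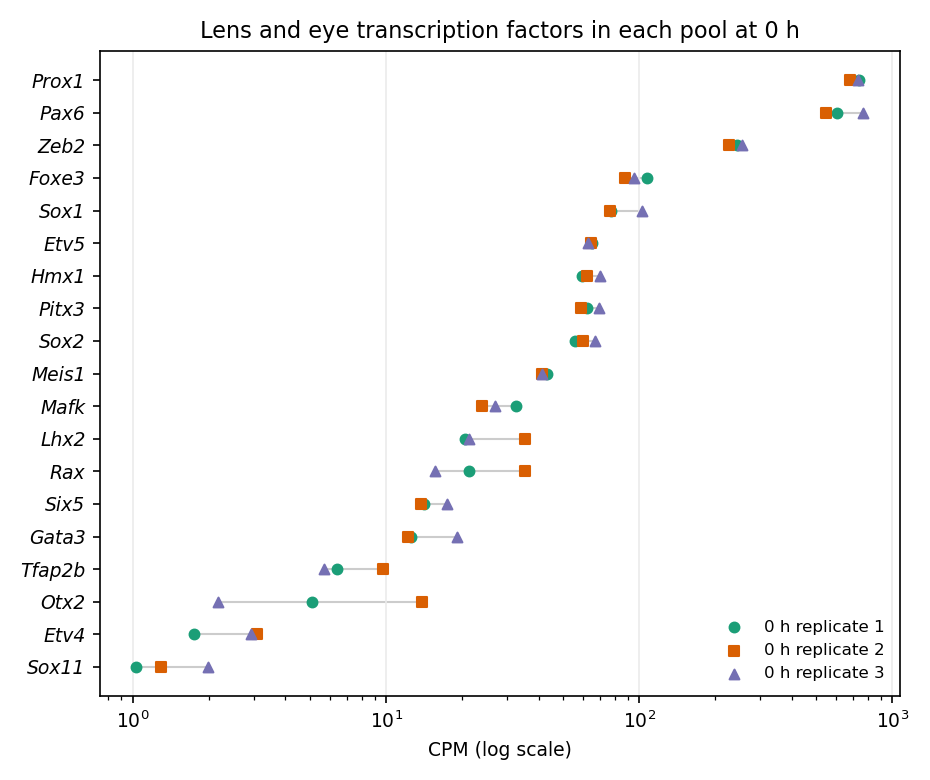
CPM (log scale) of 19 of the 20 detectable transcription factors of the lens and the eye in each pool at 0 h PCS, 1 symbol per replicate, with a gray line from the lowest to the highest pool. Prox1 and Pax6 have the highest counts of the list in every pool, and Lhx2, Rax and Otx2 are highest in replicate 2.

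Among genes with an exon length, the 20 highest by FPKM were headed by mitochondrial transcripts. The 2 mitochondrial ribosomal RNAs had 18508 ± 605 FPKM (mt-Rnr2) and 11619 ± 739 FPKM (mt-Rnr1), and the messengers mt-Cytb (1572 ± 79.2 FPKM), mt-Nd1 (1400.1 ± 23.7 FPKM), mt-Co1 (1324 ± 56.0 FPKM), mt-Nd5 (964 ± 28.7 FPKM), mt-Nd2 (600.1 ± 27.1 FPKM), mt-Nd4 (467 ± 16.5 FPKM) and mt-Nd6 (306 ± 26.5 FPKM) were among the 20. These encode subunits of the respiratory chain. The 12 matched genes of the mitochondrial genome together took 4.71%, 5.07% and 4.84% of the gene counts, and the 9 of them at 10 CPM or more had a median SD of 0.06. The noncoding or predicted transcripts Gm24187, Gm26917 and Gm42418 also ranked high, with 3212, 3130.0 and 2846 FPKM, and the first has an exon length of only 57 bases.

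The other members of the 20 were nuclear protein-coding genes. Cd24a, which encodes a small surface glycoprotein, had 358, 360.1 and 354 FPKM, the highest of these, with a CV of 0.822%. Aldoc, a glycolytic aldolase, had 312, 293 and 282 FPKM. Erich5 had 268 ± 22.6 FPKM, and Ezr, which encodes the membrane-cytoskeleton linker ezrin, had 209.7 ± 9.41 FPKM. Ass1, the argininosuccinate synthase, had 194 ± 12.7 FPKM, and Aldh1a1, an aldehyde dehydrogenase that makes retinoic acid, had 172 ± 2.43 FPKM. Jund, the AP-1 factor with steady expression in many cells, had 164 ± 13.1 FPKM, and Slc2a1, the glucose transporter GLUT1, had 155 ± 9.69 FPKM. Most neighbors in this order overlapped in their pools, namely Aldoc with Erich5, Ezr (216, 199 and 214 FPKM) with Ass1 (209, 186 and 188 FPKM), Aldh1a1 (172, 175 and 169.7 FPKM) with Jund (178, 154 and 159 FPKM), and Jund with Slc2a1 (162, 144 and 158 FPKM). The pools did not overlap between Cd24a and Aldoc, Erich5 and Ezr, or Ass1 and Aldh1a1. The median gene with FPKM stood at 4.54 FPKM. Without replicate 2, 19 of these 20 genes were still among the 20 highest, an alternative chosen after seeing the data.

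**Figure D3:**
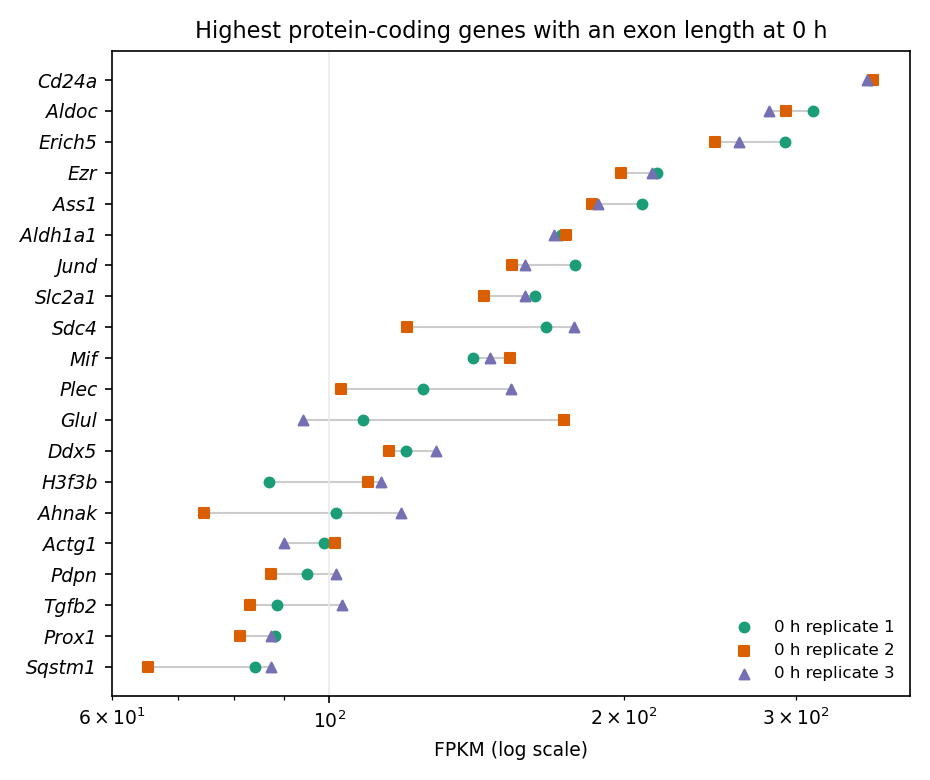
FPKM (log scale) of the 20 highest protein-coding nuclear genes with an exon length in each pool at 0 h PCS, 1 symbol per replicate, with a gray line from the lowest to the highest pool. The 3 pools nearly coincide for Cd24a and Aldh1a1, and Glul is highest in replicate 2.

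Genes of the fiber cells were measured as well, although the fiber mass had been removed. Of 22 fiber cell genes other than crystallins, 8 matched a symbol and all 8 were detectable, and several of these, Prox1 among them, are expressed in LECs too. Gja1, the connexin 43 gap junction gene of LECs and ciliary epithelium, had 452, 455 and 469 CPM with a CV of 2.00%. Of the 8 matched connexins, 6 stood at means of 5.48 CPM or less. Lgsn, the lengsin gene of differentiating fiber cells, had 229, 162 and 138 CPM, highest in replicate 1. Caprin2, an RNA granule gene of fiber cells, had 43.5, 48.0 and 43.8 CPM, and Celf1, an RNA-binding protein gene linked to cataract, had 44.9 ± 8.80 FPKM. Many defining fiber genes, Mip, Gja3, Bfsp1 and Lim2 among them, matched no symbol and are not analysed here.

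Of the crystallin genes, only 2 gamma crystallins matched. Crygb had 113, 126 and 119 CPM, and its pools differed by a CV of 5.28%. Crygf had 0.281, 3.81 and 12.3 CPM, lowest in replicate 1 and highest in replicate 3, and it was not detectable in replicate 1, where 10 counts were required. The gamma crystallins are close copies of each other, so reads may be shared or lost between them and both values are uncertain. Among the small heat shock genes outside the alpha crystallins, Hspb1 had 30.03 ± 5.49 FPKM and Hspb8 5.25 ± 1.24 FPKM.

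Genes that hold an epithelium together were counted in every pool. Of 26 junction and adhesion genes, 13 matched and 13 were detectable. Their median was 25.2 CPM, against 13.5 CPM over all detectable genes, with or without a symbol. Besides Gja1, Ctnna1, the alpha catenin of adherens junctions, had 226, 219 and 213 CPM. Epha2, an ephrin receptor mutated in inherited cataract, had 100.1, 57.9 and 71.6 CPM and 16.4 ± 4.60 FPKM, highest in replicate 1. Of the desmosomal genes, Dsg2 had 21.96 ± 2.81 CPM, Dsc2 16.2 ± 3.46 CPM and Dsp 2.74 ± 1.16 CPM. In 9 of the 13 genes replicate 3 was highest, where 42.3% of all detectable genes were highest in that pool. Among 11 matched integrin subunits, which bind the capsule, Itgav (296 ± 38.4 CPM), Itgb1 (232 ± 19.8 CPM) and Itga3 (157 ± 20.3 CPM) had the most counts, and Itgb6 and Itgb3 were not detectable in every pool. Itga7, a laminin-binding subunit, had 9.90, 8.22 and 23.3 CPM and was the only member at least 2 times higher in replicate 3 than in both others, against 2.08% of all detectable genes.

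The capsule and the zonule were represented by genes of their matrix. Of 27 basement membrane genes 8 matched and were detectable, and the others are not analysed here. Among these 8 only, Col18a1, whose product is a collagen of basement membranes, had the most counts, with 563, 837 and 551 CPM. The laminin chains Lama5 (345 ± 72.0 CPM), Lama3 (227 ± 66.0 CPM) and Lamb2 (188 ± 5.23 CPM) followed by counts, with the heparan sulfate proteoglycan Agrn at 75.8 ± 5.98 CPM. Of 20 genes of the zonule and of elastic fibers 16 matched and 16 were detectable. Of these, 7 were highest in replicate 2 and 7 in replicate 3, against 33.0% and 42.3% of all detectable genes, and their median log2 difference from the gene means was 0.02 in replicate 2. Fbn1, the fibrillin that forms zonule fibers, had 489, 780.3 and 525 CPM. Ltbp2, a fibrillin-binding protein of the zonule, had 176, 312 and 197 CPM, and Efemp1 had 85.1, 157 and 99.98 CPM. These 3 genes were highest in replicate 2, whereas Ltbp3 (291, 296 and 281 CPM) and Loxl1 (124, 129.7 and 134 CPM) were level across the pools. Adamts17 (5.39, 2.11 and 7.36 CPM) and Lox (2.72, 0.405 and 2.96 CPM) were at least 2 times lower in replicate 2 than in both others. The nonpigmented ciliary epithelium also makes zonule proteins, and its part in these counts was not tested. Of 12 ciliary and iris epithelium genes 10 matched and 10 were detectable, and 6 were highest in replicate 2, against 33.0%. Ptgds, a prostaglandin D synthase secreted by ciliary epithelium, had 550.5, 479.5 and 401 CPM, Wls, a carrier of Wnt proteins, had 194, 162 and 200.1 CPM, and Best2, a channel of the nonpigmented ciliary epithelium, had 26.0, 42.9 and 18.3 CPM. Their median log2 difference from the gene means was −0.06, 0.31 and −0.13 in the 3 pools.

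Collagen chains covered a wide range. All 22 collagen symbols at hand were counted and 20 were detectable, with a median of 31.9 CPM. After Col18a1 by counts, Col6a3, a chain of microfibrillar collagen, had 351, 254 and 589 CPM and was highest in replicate 3. Chains typical of cartilage and vitreous were in the middle of the range, with Col2a1 at 89.97, 126 and 78.6 CPM and Col9a1 at 89.4, 165 and 93.0 CPM, both highest in replicate 2. In all, 12 of the 20 detectable chains were highest in replicate 2, against 33.0% of all detectable genes. The fibrillar chain Col1a1, a fibrotic marker, stood at 15.9, 7.37 and 6.76 CPM.

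Of 12 fibrotic marker genes 9 matched and were detectable, with a median of 32.6 CPM, and each pool was highest in 3 of them. Tgfb2, the transforming growth factor ligand abundant in the eye (chromosome 1, 186622787 to 186709697), had 513, 481 and 596 CPM and 91.5 ± 10.3 FPKM, rank 31 per length. Acta2, the smooth muscle actin gene, had 132, 122 and 95.5 CPM, Col1a2, a fibrillar collagen chain, had 71.7, 118 and 81.0 CPM, Fn1, the fibronectin gene, had 36.0, 23.1 and 38.6 CPM, and Tnc, the tenascin C gene, had 2.30, 7.13 and 5.73 CPM. Acta2 is also a gene of the iris and ciliary muscle, whose myosin gene Myh11 had 22.9, 15.1 and 9.33 CPM and followed the same order of the pools, and the part of muscle in the Acta2 level was not tested.

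Transport and nutrient genes had high counts, with 19 of 32 matched, all 19 detectable and a median of 119.6 CPM. Slc6a6, the taurine transporter, had 1403, 2047 and 1350.1 CPM and was highest in replicate 2. Slc12a2, the sodium potassium chloride cotransporter, had 300.4, 274 and 338 CPM, and Slc7a11, the cystine transporter that feeds glutathione synthesis, had 239.9, 173 and 219.7 CPM. Piezo1, a mechanically gated channel, had 21.4 ± 3.34 FPKM. The water channel Aqp1 of LECs had 137, 129 and 216 CPM, and Aqp4, known from the retina and ciliary epithelium, had 155, 175 and 173 CPM, whereas Aqp3 was not detectable in every pool. Atp1b2, a sodium pump beta subunit, had 93.2, 204 and 61.2 CPM and was 2.19-fold higher in replicate 2 than in the next pool.

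All 10 matched glycolysis genes of 16 exceeded 10 CPM, with a median of 181 CPM and a median SD of 0.16, as over all genes at that level. Eno1 had 846, 1010.0 and 794 CPM, Ldha 225, 231 and 199.6 CPM and Hk2, an inducible hexokinase, 204, 155 and 144 CPM and 28.1 ± 5.31 FPKM, while Hk1 had 12.4 ± 3.72 FPKM. None of the 10 was highest in replicate 3, which was the highest pool in 42.3% of all detectable genes. Of 37 glutathione, NADPH and antioxidant genes 15 matched and were detectable, and the 14 at 10 CPM or more had a median SD of 0.22. After Aldh1a1 by counts, Aldh3a1, an aldehyde dehydrogenase best known from the cornea, had 524, 385 and 550.4 CPM, and the secreted glutathione peroxidase Gpx3 had 237, 240.3 and 143 CPM. Per length, Prdx5, a peroxiredoxin, had 47.8 ± 1.22 FPKM, the metallothioneins Mt2 and Mt1 had 34.4 ± 10.7 FPKM and 28.0 ± 4.02 FPKM, and Hmox1, the stress-inducible heme oxygenase, had 9.63 ± 1.67 FPKM.

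Growth factor receptors were represented by 25 of 39 genes, all detectable, with a median of 57.0 CPM. Fgfr2 (30.2, 24.8 and 39.2 FPKM) exceeded Fgfr1 (26.7, 21.6 and 29.8 FPKM) in each pool, but the ranges of the pools overlapped. Notch2 had 338, 328 and 386 CPM and Pdgfra, the receptor through which platelet-derived growth factor acts on LECs, 224, 203 and 284 CPM. The Wnt coreceptor Lrp6 had 14.1 ± 1.42 FPKM and the hedgehog signal transducer Smo 108 ± 15.7 CPM. Per length the lowest of the 9 receptors with an exon length were Tgfbr2, the type II receptor of the abundant Tgfb2, with 1.32 ± 0.371 FPKM, and Met with 1.19 ± 0.208 FPKM. In 18 of the 25 receptors replicate 3 was highest, against 42.3% of all detectable genes. Genes of S, G2 and M phases were scarcely sampled, with 5 of 24 matched and all 5 detectable, and Top2a, a topoisomerase of dividing cells, had the most counts, with 16.5, 14.3 and 23.3 CPM. The cyclin gene Ccnd2 (293, 289 and 316 CPM) and the inhibitor gene Cdkn1b (63.7, 57.0 and 62.6 CPM) were higher in counts and level across the pools.

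Of 48 mouse counterparts of human inherited cataract genes 12 matched and all 12 were detectable, with a median of 90.7 CPM. Beyond Pax6, Foxe3, Pitx3, Crygb and Epha2, Chmp4b, a subunit of the membrane-cutting ESCRT machinery, had 66.2 ± 4.13 FPKM, the Nance-Horan syndrome gene Nhs had 84.0, 81.1 and 88.9 CPM, and the monocarboxylate transporter gene Slc16a12 had 42.4, 39.3 and 47.8 CPM. Their 11 members at 10 CPM or more had a median SD of 0.14. Of 23 structural genes of the actin cytoskeleton 16 matched and were detectable. Per length Ezr led the 11 with an exon length, followed by Actg1 (96.7 ± 6.06 FPKM) and Myh9, the nonmuscle myosin heavy chain (60.6 ± 7.66 FPKM). Flnc, a filamin best known from muscle, had 136, 78.9 and 236 CPM and was highest in replicate 3.

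Over the 8453 genes with a mean of at least 10 CPM, the median CV was 11.3%, where counting alone gives 3.64%, and the median SD of log2(CPM + 0.5) was 0.16. In 598 of these genes (7.07%) the CV did not exceed counting noise. The median SD fell from 0.20 in the 3778 genes between 10 and 30 CPM to 0.11 in the 1045 genes between 100 and 300 CPM and was 0.13 in the 60 genes at 1000 CPM or more. The coefficient of biological variation fitted by edgeR across these genes was 19.8%. It was 16.3% without replicate 2, 17.8% without replicate 3 and 23.8% without replicate 1. The Pearson r of log2(CPM + 0.5) across the detectable genes, which are not independent, was 0.974 for replicates 1 and 2, 0.976 for replicates 1 and 3 and 0.957 for replicates 2 and 3. Each library was counted as 1 replicate.

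Some genes hardly differed between the pools. The 5 genes with the smallest SD held Zcchc3 (10.3, 10.3 and 10.3 CPM), Adgra3 (60.9, 60.8 and 60.9 CPM), Lsm6, a splicing factor gene (20.6, 20.5 and 20.5 CPM), and 2 identifiers with no name at hand. The 13 ribosomal protein genes at 10 CPM or more had a median SD of 0.08, and Rpl27a, for example, had 122, 119 and 121 CPM. The endoplasmic chaperone gene Hspa5 had 239, 237 and 241 CPM. The 8 matched heat shock genes, Hspa5 included, had a median SD of 0.29, and 5 were highest in replicate 1 and 3 in replicate 3, against 24.6% and 42.3% of all detectable genes. Hsph1 (99.9, 62.7 and 77.3 CPM) and Hspa1b (38.6, 24.9 and 31.7 CPM) were highest in replicate 1, and Bag3, a cochaperone gene, had 85.2, 55.4 and 85.4 CPM. Hspa1a and Hspa1b share nearly identical sequence, so their split is uncertain.

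At the other end, 137 genes (1.62% of those at 10 CPM or more) had an SD of log2(CPM + 0.5) above 1. There were 53 such genes without replicate 2 and 78 without replicate 3, and 194 without replicate 1, so the pair of replicates 2 and 3 gave the most. The largest SD of all belonged to ENSMUSG00000086503, with 0.141, 407 and 1457 CPM. The next, ENSMUSG00000069045, had 78.7, 33.9 and 0.0494 CPM, the reverse order of the pools, and the 3 features after it kept that reverse order, with a count of 0 in replicate 3. None of these 5 identifiers was paired with a name. Among named genes the largest SDs were in Ptprn (16.0, 39.2 and 2.42 CPM), Sncb, a synuclein of neurons (16.6, 51.3 and 4.49 CPM), and Impg2, a proteoglycan of the photoreceptor matrix (13.7, 50.7 and 4.89 CPM). In all 3 genes replicate 2 was highest and replicate 3 lowest.

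**Figure D4:**
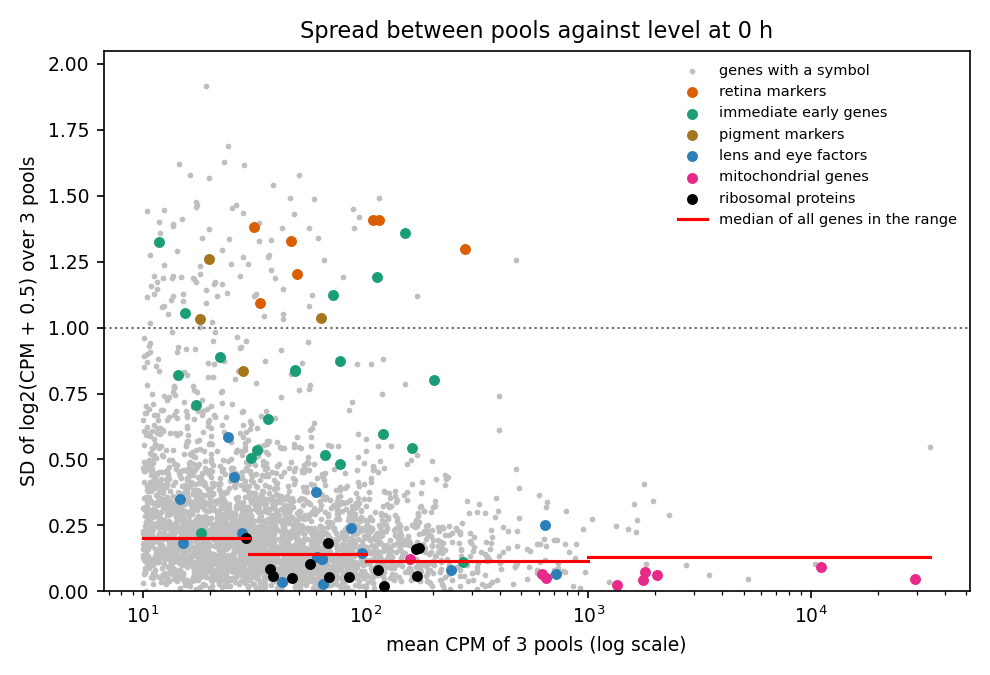
SD of log2(CPM + 0.5) over the 3 pools against mean CPM (log scale) for genes with a symbol at 10 CPM or more, with members of 6 gene groups in color, the median SD of all genes in each range of CPM as red lines, and a dotted line at an SD of 1. Retina markers all lie above 1, immediate early genes spread from 0.11 to 1.36, and mitochondrial and ribosomal protein genes lie near or below the red lines.

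The order of the pools in those neuronal genes ran through the whole set of retina markers. Of 16 markers of neural retina and photoreceptors 9 matched and 8 were detectable, and Gnat1 is not analysed here. Sag, the arrestin of rod photoreceptors (chromosome 1, 87798143 to 87845158), had 203, 543 and 89.5 CPM. The rod phosphodiesterase gene Pde6b had 81.5, 231 and 32.4 CPM, the outer segment gene Prph2 had 63.6, 228 and 33.0 CPM, and Rom1, its partner, had 34.5, 95.2 and 17.8 CPM. The photoreceptor transcription factors Crx (31.5, 93.0 and 14.5 CPM) and Nrl (23.2, 62.1 and 8.74 CPM) and the synaptic gene Snap25 (32.9, 55.2 and 12.0 CPM) followed the same order, and Opn1sw, the short-wavelength cone opsin gene, had 7.79, 13.1 and 1.14 CPM. Replicate 2 was highest in 8 of the 8, against 33.0% of all detectable genes, and at least 2 times higher than both others in 6, against 3.09%. All 7 at 10 CPM or more had an SD above 1, against 1.62%. In these 7 genes replicate 2 exceeded replicate 1 by 1.68-fold to 3.58-fold (median 2.76) and replicate 3 by 4.58-fold to 7.13-fold (median 6.43). The matched markers summed to 479.7 CPM in replicate 1, 1324 CPM in replicate 2 and 209 CPM in replicate 3.

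Genes outside that list were also highest in replicate 2. At 10 CPM or more, 142 genes were at least 2 times higher in replicate 2 than in both other pools, compared with 14 in replicate 1 and 15 in replicate 3. The 142 include 6 of the retina markers above. Over all detectable genes the contrast was smaller, with 111 such genes in replicate 1, 462 in replicate 2 and 310 in replicate 3. At 10 CPM or more, 111 genes were at least 2 times lower in replicate 3, compared with 7 in replicate 1 and 26 in replicate 2. Of the 142 genes, 136 were also higher in replicate 1 than in replicate 3, with a median of 2.01-fold. Chosen after their values were seen, Rp1, a gene of the photoreceptor axoneme, had 68.8, 244 and 31.0 CPM, and Pdc, the phosducin gene of photoreceptors, had 32.2, 127 and 16.3 CPM. Endothelial Kdr, the only endothelium marker of the 5 matched that reached 10 CPM, shared the order with 9.57, 27.8 and 3.60 CPM, while the endothelial genes Pecam1 (1.27, 0.769 and 0.592 CPM) and Cdh5 (0.422, 0.202 and 0.0987 CPM) were near 0. Without replicate 2 the summed retina markers averaged 344 CPM, compared with 671 CPM over all 3 pools.

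The immediate early genes, which many stimuli induce within minutes, were led by another pool. Of 27 listed, 26 matched and all 26 were detectable, with a median of 34.5 CPM. This list was taken from genes that the study reports for the time after surgery, so that nearly all have names. Jund stood apart as the most abundant by mean CPM and the steadiest, with 298, 257 and 265 CPM, although Jun exceeded it in replicate 1. Jun had 309.7, 199 and 103 CPM, Fos 220.4, 74.0 and 43.2 CPM and Egr1 248, 160.1 and 40.5 CPM, all of them highest in replicate 1 and lowest in replicate 3. Atf3, a stress-induced factor, had 121, 67.1 and 25.4 CPM, and the phosphatase gene Dusp1 had 85.7, 69.3 and 42.3 CPM. Per length the means were 63.9 ± 32.5 FPKM for Jun, 47.8 ± 40.3 FPKM for Fos, 33.4 ± 23.3 FPKM for Egr1 and 33.0 ± 22.1 FPKM for Atf3. The ranges of these 4 overlapped, but Jun was the highest of them in each pool, whereas the order of Fos and Egr1 and that of Egr1 and Atf3 changed between pools. Fosb had 18.7, 2.96 and 13.8 CPM, with replicate 2 lowest.

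Replicate 1 was the highest pool in 25 of the 26 immediate early genes, against 24.6% of all detectable genes, and at least 2 times higher than both others in 3, against 0.743%. The exception was Nr4a3 (15.4, 6.64 and 20.9 CPM), which was highest in replicate 3. Of the 21 members at 10 CPM or more, 5 had an SD above 1, against 1.62% of genes at that level. The median fold in these 21 was 2.24 for replicate 1 over replicate 3 and 1.77 over replicate 2. Fos and Egr1 thus differed by 5.11-fold and 6.13-fold between the highest and the lowest pool, within one group of capsules taken at 0 h PCS. The labels do not say which pools held mice whose other eye had been operated 6 h earlier, and replicate 1 was also the pool with the most counts of pigment markers. Whether either has a part in this order of the pools was not tested.

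Pigment cell genes followed replicate 1 as well. Dct, an enzyme of melanin synthesis, had 119.5, 36.6 and 32.1 CPM, Tyrp1 had 47.3, 22.1 and 14.8 CPM, Pmel, the fibril protein of melanosomes, had 41.6, 8.70 and 8.79 CPM, and Tyr, the tyrosinase gene, had 19.3, 3.52 and 3.11 CPM. In all 4 genes replicate 1 was at least 2 times higher than both other pools, against 0.743% of all detectable genes. The matched pigment markers summed to 239 CPM in replicate 1, 105 CPM in replicate 2 and 67.1 CPM in replicate 3, and they averaged 86.0 CPM without replicate 1, compared with 137 CPM over all 3 pools. The fifth matched pigment marker of 10, Rlbp1, a gene of pigment epithelium and of Müller glia, had 11.7, 34.1 and 8.29 CPM and followed the retina markers. Corneal and surface keratins were highest in the same pool at low levels, with Krt12 at 7.65, 0.486 and 1.68 CPM and Krt5 at 8.40, 0.364 and 2.62 CPM. The 5 matched erythrocyte markers stood at means of 5.44 CPM or less, and all 4 detectable ones were highest in replicate 1, against 24.6% of all detectable genes, with Hba-a2 at 9.62, 3.28 and 3.41 CPM, whose reads can be shared with its near copy Hba-a1.

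Leukocyte markers were low in every pool. Of 19 listed, 11 matched and 8 were detectable, with a median of 1.95 CPM and summed levels of 45.5, 44.7 and 30.2 CPM. Csf1r, the receptor of macrophage colony-stimulating factor, had the most counts, with 10.3, 13.04 and 7.95 CPM. Cd68, a macrophage gene, had 1.03, 0.688 and 1.73 CPM and Ptprc, which encodes the pan-leukocyte antigen CD45, had 2.35, 0.931 and 0.148 CPM. None of the 11 was listed at 0 in all pools, and Itgam, a myeloid integrin gene, had the fewest counts, with 0.0938, 0.486 and 0.197 CPM. Stroma markers were uneven, with Dcn, a proteoglycan gene of fibroblasts, at 6.66, 3.81 and 6.37 CPM beside Col6a3 and Pdgfra at the levels given above, which are also LEC or matrix genes.

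**Figure D5:**
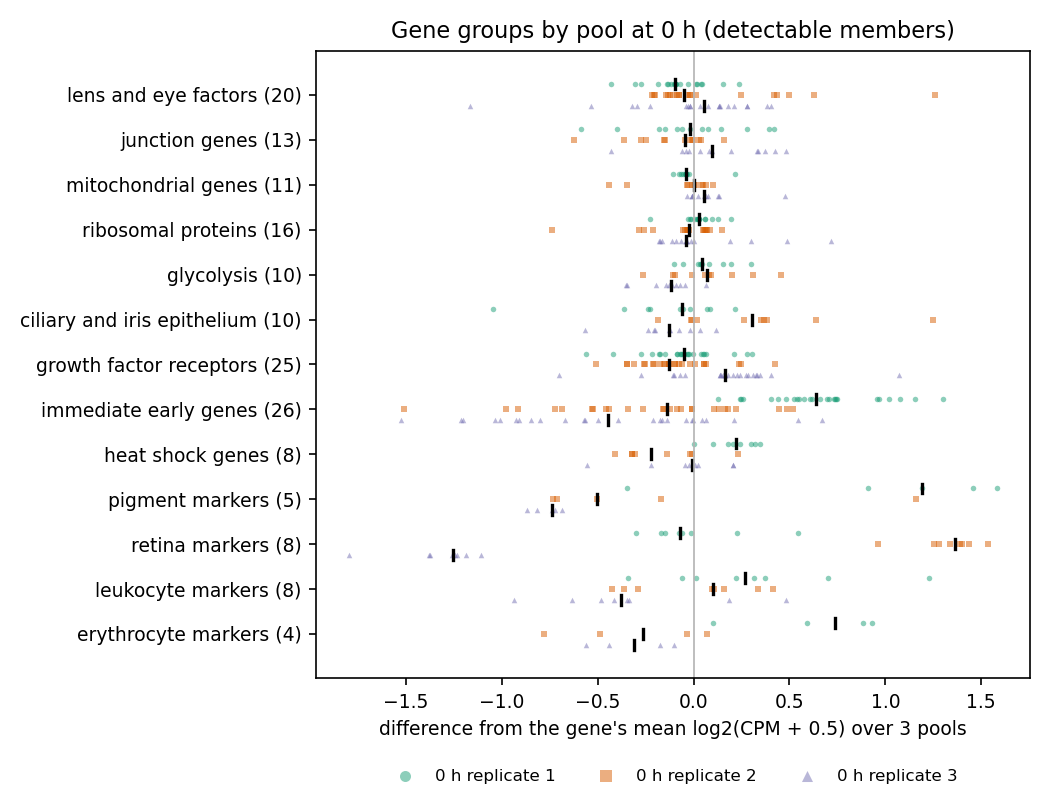
Difference of each detectable gene from its own mean log2(CPM + 0.5) over the 3 pools, for 13 gene groups with the number of genes in brackets, with 1 color and symbol per replicate and a black bar at the group's median. Retina markers are highest in replicate 2 and lowest in replicate 3, immediate early genes and pigment markers are highest in replicate 1, and mitochondrial and ribosomal protein genes lie close to 0.

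Of 26 abundant nuclear and noncoding RNAs 11 matched and were detectable. Of these, 3 were highest in replicate 1, 4 in replicate 2 and 4 in replicate 3, against 24.6%, 33.0% and 42.3% of all detectable genes, and none was at least 2 times higher in replicate 3 than in both others, against 2.08%. Malat1 was 1.51-fold higher in replicate 3 than in replicate 1 and 2.13-fold higher than in replicate 2. Neat1, the scaffold of nuclear paraspeckles (chromosome 19, 5824708 to 5845480), had 502, 145 and 781 CPM, so replicate 2 was lowest by a wide margin. Kcnq1ot1, an imprinted antisense RNA, had 235, 163 and 293 CPM in the same order, whereas Meg3, an imprinted RNA of neural cells, had 57.3, 78.0 and 33.4 CPM and followed the order of the retina markers. The share of read pairs outside annotated exons was likewise highest in replicate 3 and lowest in replicate 2. Whether this share, which can hold unspliced RNA, has a part in these levels was not tested. Since the strand setting of the counting is not given in the sources used here, reads of antisense and overlapping genes such as Kcnq1ot1 cannot be told apart from those of their partners.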

How the data were processed

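Capsules with attached LECs were pooled by 5, and their RNA was made into ribodepleted, stranded total RNA libraries and sequenced as read pairs. The authors aligned the pairs to GRCm38 with Hisat2 (default parameters) and counted them with HTSeq in union mode on Ensembl genes (release 100 for the initial analysis), and they deposited raw counts per gene with 5 summary rows per library. The versions of these tools and the strand setting are not given in the sources used here. The summary rows were set aside (58.8% to 60.5% of the read pairs), and CPM and FPKM were computed on each library's total gene count. The depth of 20253239 to 24701039 counts puts the counting CV of a gene at 10 to 30 CPM at 5.07% (median). Symbols and exon lengths came from the parts of the study's supplementary tables that were read, and coordinates by symbol from RefSeq (GRCm38.p6), where 5451 detectable symbols were found once. No sequences are shown because none were at hand.

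A gene was detectable at 10 counts or more in every library. The spread was the SD of log2(CPM + 0.5), and the coefficient of biological variation the square root of the common dispersion of edgeR 4.0.16 (R 4.3.3), with all other values from Python 3.11.15. The edgeR coefficient and the call of a library at least 2 times above both others were tested on simulated data. The named genes were Pax6, Foxe3 and Cryaa, the 20 highest by FPKM, the 10 highest by CPM, any list member, and those with the 10 largest and 5 smallest SDs at 10 CPM or more, and some of these are not reported here. The members and lists were chosen with earlier results of these data known. The alternatives were TMM and DESeq2 1.42.0 scaling, other floors, pseudocounts and definitions, and leaving out each library. Columns of the supplementary tables that hold fold changes or p-values of the study were not used.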

Additional observations from a re-analysis of the deposited data

How the results depend on the processing

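Of 350 recomputed values, 331 moved by less than the spread between the pools, or for counts by less than 1.5 times, and all 48 values under TMM scaling and all 9 under DESeq2 size factors were among them. The numbers of genes that set a library apart were recomputed under TMM only, and this and the DESeq2 values of the 3 summed marker lists were chosen after seeing the data. Scaled on the total without mitochondrial genes and the most abundant gene, Pax6 rose to 812 CPM, Foxe3 to 123 CPM and Prox1 to 109 FPKM, since this total is smaller. Without the most abundant gene in the total, the 10 most abundant genes held 21.8% and mitochondrial genes 5.84% of the counts. With a floor of 1 CPM the median SD was 0.23, 463 genes had an SD above 1 and the edgeR coefficient was 28.5%. With a floor of 50 CPM the median SD was 0.12 and 30 genes had an SD above 1. Leaving out one library gave a median SD between 0.12 (without replicate 2) and 0.16 (without replicate 1), between 53 and 194 genes with an SD above 1, and between 1 and 2 detectable gamma crystallins, since Crygf failed only in replicate 1. Counting members at 1 FPKM or more left 1 zonule gene, 0 leukocyte markers, 1 collagen chain and 1 connexin among those with a length. No paired analysis was possible because only the 0 h group was described and no result came from a test. Values as TPM, as shares of summed TPM and with other exon lengths were not run, because lengths were at hand for 1828 detectable genes only. With 3 pools in 1 group, the spread rests on 2 degrees of freedom per gene, and depth limits what can be said of genes below 10 counts.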
